A study of Mus musculus with 23 samples.

Results

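The EGR, IER and NR4A immediate early genes are 9 genes, Egr1, Egr2, Egr3, Ier2, Ier3, Ier5, Nr4a1, Nr4a2 and Nr4a3, taken by name from the 55401 genes of the count table whatever their values. RNA-seq libraries were made from mouse bone marrow-derived macrophages, cells grown from bone marrow into macrophages, of mice labelled Selenow knock-out and of wild-type mice. Selenow encodes the small selenoprotein W. Cells were untreated (0 h) or held with bacterial lipopolysaccharide (LPS), the Toll-like receptor 4 agonist, at 100 ng/ml for 4, 8 or 24 h. There are 23 libraries, 3 for each genotype and time except the labelled knock-out after 24 h of LPS, which has 2. They are named here by their running numbers, 13 to 23 for the labelled knock-out and 1 to 12 for wild-type. The labels name no strain and no other allele or agent, and give no animal or culture for a library, so that p-values measure how libraries of a group vary, which may be technical. No untreated library of a later time was analysed here, so LPS and time in culture cannot be told apart. No time between 0 and 4 h was sampled, so any earlier change of these genes was not measured.

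Immediate early genes are genes whose transcription starts within minutes of a stimulus and needs no new protein. The EGR proteins are zinc-finger transcription factors that bind GC-rich sites, and their genes are classical targets of serum response factor (SRF) and its ELK partners, which act downstream of the ERK kinases. The NR4A proteins are nuclear receptors with no known natural ligand that bind the NBRE element, and in other cells their genes respond to the cAMP-responsive factor CREB. The IER genes were named for this behaviour and encode unrelated kinds of protein, Ier2 and Ier5 being relatives of each other. In macrophages LPS reaches these genes through MAP kinases and NF-kB, and NR4A proteins are known there for limiting inflammatory gene expression.

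The sequence before the start site is shown for the NR4A genes and for Egr2, because these promoters hold matches to the motifs of CREB and SRF. RefSeq promoters of GRCm38.p6, 250 bases before to 50 bases after a start, were searched for 6 of the 9 genes (Egr2 with 5 starts, Ier3, Ier5, Nr4a1, Nr4a2 and Nr4a3). No window of Egr1, Egr3 or Ier2 was searched, so nothing is said here of motifs in their promoters. The CRE core TGACG, which also lies within the full CRE TGACGTCA, was searched on both strands and had 4 matches in each of the NR4A windows. Of all 32851 promoters, 20.8% held at least 1 match and 0.231% (76 promoters) held 4 or more. A CArG box, the SRF element, stood in 4 of the 5 Egr2 windows, 3 of which overlap, against 1.63% of all promoters. It stood in no other window of the genes searched. The EGR site GCGNGGGCG had 1 match each in the Nr4a1 and Nr4a2 windows (5.55% of all promoters), and the full CRE (1.79%) and the NBRE AAAGGTCA (1.51%) had none in any of these windows. The 250 bases before the start are printed 5′ to 3′ on the strand of the gene, with TGACG or its reverse complement and the CArG box in capitals. A match is a description of letters, not a bound site. The windows are chr10:67537619-67537868 (plus strand, the Egr2 start with the CArG box at base -72 and CRE cores at -111 and -55), chr15:101266596-101266845 (plus), chr2:57124004-57124253 (minus) and chr4:48045055-48045304 (plus).
Egr2: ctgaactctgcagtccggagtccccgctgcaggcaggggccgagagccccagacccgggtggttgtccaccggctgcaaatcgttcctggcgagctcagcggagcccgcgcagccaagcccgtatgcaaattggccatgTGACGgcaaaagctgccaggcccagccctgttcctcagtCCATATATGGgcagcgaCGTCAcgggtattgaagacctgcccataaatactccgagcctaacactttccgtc
Nr4a1: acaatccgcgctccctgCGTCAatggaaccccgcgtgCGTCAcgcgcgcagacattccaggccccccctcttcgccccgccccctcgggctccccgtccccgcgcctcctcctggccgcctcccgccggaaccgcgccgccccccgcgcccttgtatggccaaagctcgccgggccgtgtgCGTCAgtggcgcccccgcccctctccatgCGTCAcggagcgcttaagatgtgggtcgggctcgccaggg
Nr4a2: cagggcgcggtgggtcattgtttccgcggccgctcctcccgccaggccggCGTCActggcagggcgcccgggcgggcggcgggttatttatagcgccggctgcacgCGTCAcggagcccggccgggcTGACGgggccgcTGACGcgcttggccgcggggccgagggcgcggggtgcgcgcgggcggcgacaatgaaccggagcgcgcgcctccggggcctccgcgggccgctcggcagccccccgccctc
Nr4a3: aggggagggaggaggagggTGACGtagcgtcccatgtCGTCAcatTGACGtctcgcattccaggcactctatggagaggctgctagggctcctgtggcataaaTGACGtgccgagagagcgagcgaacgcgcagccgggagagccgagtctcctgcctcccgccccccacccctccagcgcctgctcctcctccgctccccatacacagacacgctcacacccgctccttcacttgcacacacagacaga

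Libraries held 39001456 to 41819953 counted fragments, and 21722 to 23575 genes had at least 1. Macrophage markers were present in every library, with Csf1r at 1445 to 3247 and Lyz2 at 5504 to 18378 CPM (a gene's count relative to the library total, scaled by TMM). Of the 8 on the list Mertk was the lowest, at 10.8 to 74.0 CPM, and Fcgr1 ranged from 96.4 to 2258 CPM. The T cell marker Cd3e was at or near 0 (at most 0.0616 CPM). Selenow itself was at 32.6% to 63.9% of the wild-type mean of its time in 7 libraries labelled knock-out, and at 82.4% to 102% in the other 4, libraries 13, 16, 19 and 22. Averaged over the times its log2 fold change was -0.70 ± 0.19 (adjusted p 0.0306 by edgeR), and the deleted stretch of the gene is not given in the labels, so a remaining transcript is no full check of the label. The group is therefore called labelled knock-out or KO-labelled throughout (wild-type is WT). Each result of the 9 genes between genotypes that passed is also given without those 4. In that fit the labelled knock-out at 24 h has 1 library that is assumed to vary like the other groups. Markers of other cells are given with all libraries only. At each time 1 labelled knock-out library (14, 17, 20 and 23) and 1 wild-type library (3, 6, 9 and 12) deviated together from their group means. This was seen over genes other than the 9. At each time their deviations correlated across genes at 0.727 to 0.801 on the even chromosomes, after the pairs had been picked on the odd ones. They are called the second library set. The labels do not name the sets. They were picked from these same libraries, so p-values of fits with a set term, or in the first set alone, may be too small.

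All 9 genes passed the filter on low counts. On the per-length scale, in CPM per kilobase of exon, the IER genes had the 3 highest means of the 9 in every group. In untreated cells Ier5 averaged 22.96 ± 2.72 CPM per kilobase in the labelled knock-out and 24.7 ± 2.28 in wild-type (SD, n = 3 each), while Nr4a3 averaged 0.0261 ± 0.00557 and 0.0356 ± 0.0271. After 4 h Ier3 was the highest, at 119 ± 26.4 in the labelled knock-out and 83.8 ± 16.8 in wild-type, and Nr4a3 had the highest mean of the EGR and NR4A genes, at 6.13 ± 3.79 and 5.53 ± 3.29. After 8 h that place was held by Egr1, at 2.49 ± 0.925 in the labelled knock-out and 7.40 ± 3.76 in wild-type. After 24 h it was held by Egr2, at 0.475 ± 0.00196 (n = 2) and 0.610 ± 0.169 (n = 3). Egr3 had the lowest mean of the 9 at 4, 8 and 24 h in both genotypes.

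**Figure D1:**
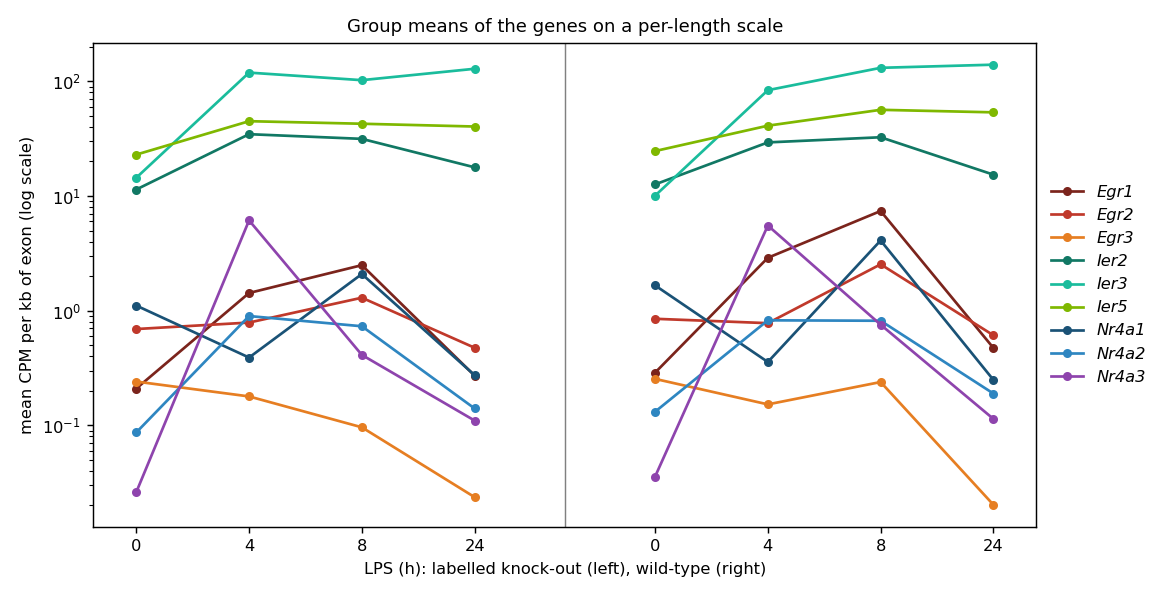
Mean level of each gene in CPM per kilobase of exon (log axis) against hours of LPS, for the labelled knock-out on the left and wild-type on the right; points are group means of 3 libraries (2 for the labelled knock-out at 24 h) and lines join them. Nr4a3 has its highest mean at 4 h, Egr1, Egr2 and Nr4a1 have theirs at 8 h, and the IER genes lie above the others in every group.

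Most of these genes were higher at 4 and 8 h of LPS than in untreated cells, while Nr4a1 was lower at 4 h, higher at 8 h and lower again at 24 h than in untreated cells. Counts of genes that passed are given with the share of all 18083 genes tested that passed in the same direction (edgeR's quasi-likelihood F-test, Benjamini-Hochberg adjusted p under 0.05). At 4 h against 0 h, 6 of the 9 were higher and 1 lower in the labelled knock-out (all genes 28% and 34.1%), and 6 higher and 1 lower in wild-type (28.2% and 34.8%). The median log2 fold change of the 9 was 1.60 in the labelled knock-out and 1.22 in wild-type, beside -0.10 and -0.12 over all genes. At 8 h, 8 were higher and 1 lower in the labelled knock-out (28.3% and 31.9%), and 8 were higher and none lower in wild-type (30.3% and 35.1%), with medians of 1.47 and 1.58 against -0.09 and -0.10 over all genes. At 24 h, 3 were higher and 2 lower in the labelled knock-out (22.6% and 20.8%), and 2 higher and 2 lower in wild-type (27.8% and 27.3%). The share that passed at 24 h was close to that of all genes, 43.4% in the labelled knock-out and 55.1% in wild-type in either direction. All comparisons with 0 h of 1 genotype use the same untreated libraries.

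Between treated times, 2 genes were higher and 1 lower at 8 h than at 4 h in the labelled knock-out (all genes 24.4% and 22.8%), and 5 higher and 1 lower in wild-type (24% and 22.8%). At 24 h against 8 h none was higher and 6 were lower in the labelled knock-out (17.9% and 16.8%), and none was higher and 7 were lower in wild-type (23.1% and 21.9%). Values against 0 h depend on the scaling. TMM factors were 1.24 to 1.36 at 0 h, against 0.786 to 0.914 at 4 and 8 h, and scaling by total counts put the all-gene median at -0.74 (4 h) and -0.62 (8 h) in the labelled knock-out, and at -0.73 and -0.70 in wild-type. Changes against 0 h moved with it, and 4 calls were lost: Ier5 in wild-type at 4 h (0.12, adjusted p 0.310), and in the labelled knock-out Egr2 (0.39, 0.205) and Nr4a1 (0.38, 0.137) at 8 h and Ier2 at 24 h (0.35, 0.117). Under that scaling Egr2 and Egr3 were also called lower in wild-type at 4 h (-0.74 and -1.33), Egr3 in the labelled knock-out at 4 h (-1.08), and Egr2 at 24 h (-0.82 in the labelled knock-out and -0.81 in wild-type). In bulk RNA, fewer cells expressing a gene and less RNA of it per cell cannot be told apart.

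**Figure D2:**
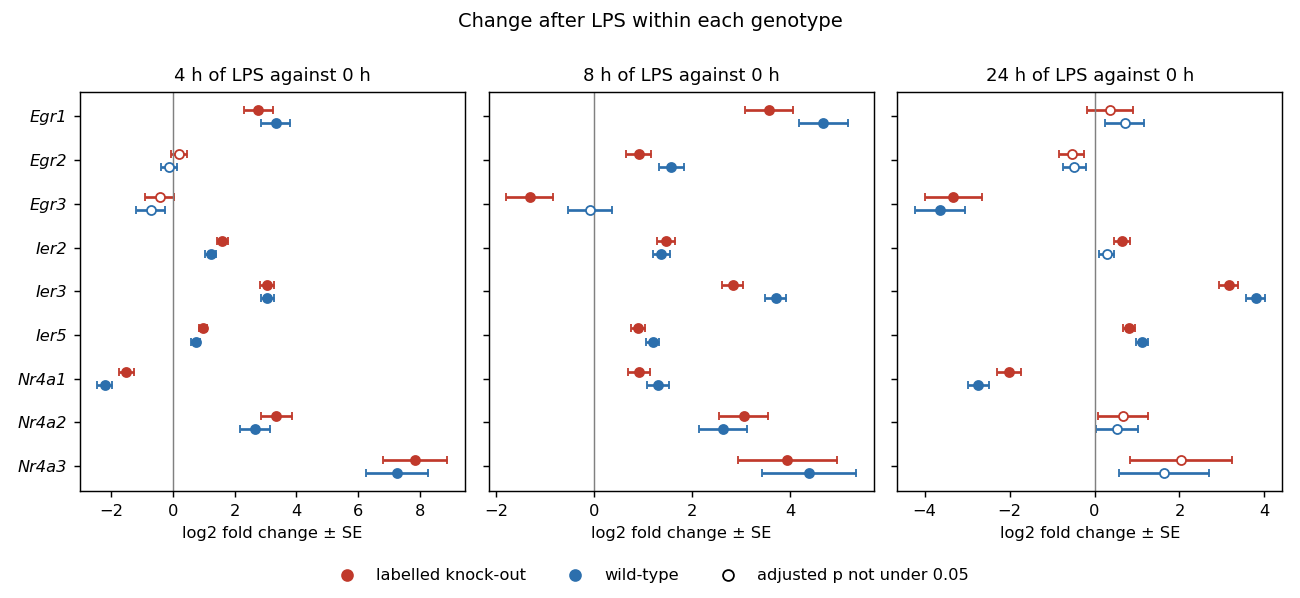
Log2 fold change ± SE of each gene at 4, 8 and 24 h of LPS against 0 h, labelled knock-out above wild-type for each gene; open points did not pass an adjusted p under 0.05, and the horizontal axes differ between panels. Nr4a3 at 4 h is farthest to the right (7.84 in the labelled knock-out and 7.26 in wild-type), and Nr4a1 lies left of 0 at 4 and 24 h and right of it at 8 h.

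Egr1, the most studied EGR factor and a common readout of ERK signalling, lies on chromosome 18 (34859823 to 34864984, plus strand, GRCm38). It was higher at 4 and 8 h, and near the untreated level at 24 h, in both genotypes. Untreated cells had 0.707, 0.985 and 1.12 CPM of Egr1 in the labelled knock-out and 0.936, 0.793 and 2.14 CPM in wild-type. At 4 h the values were 6.30, 8.84 and 4.03 CPM in the labelled knock-out and 9.64, 9.37 and 19.9 CPM in wild-type, so every treated library of each genotype stood above its untreated ones. At 8 h Egr1 had 8.90, 15.96 and 8.68 CPM in labelled knock-out libraries 19, 20 and 21, against 27.3, 19.99 and 52.2 CPM in wild-type libraries 7, 8 and 9, with no overlap. At 24 h it had 1.21 and 1.22 CPM in the labelled knock-out and 1.67, 1.52 and 3.17 CPM in wild-type. The library of the second set was the highest in 7 of the 8 groups, library 9 among them. By mean, wild-type at 8 h came first and apart from all others, then came wild-type at 4 h and the labelled knock-out at 8 and 4 h with overlapping neighbours, then the 24 h and 0 h groups. The log2 fold change at 4 h was 2.77 ± 0.47 (SE) in the labelled knock-out and 3.33 ± 0.47 in wild-type, and at 8 h 3.57 ± 0.48 in KO-labelled cells and 4.68 ± 0.49 in WT cells, each with an adjusted p of at most 5.04e-05. Egr1 was higher at 8 h than at 4 h in wild-type (1.35 ± 0.42, adjusted p 0.0131), a call lost without library 4 (0.0586), 5 (0.0606) or 9 (0.106) and against a fold of 1.5 (0.0668), and it was lower at 24 h than at 8 h (-3.20 ± 0.56 in the labelled knock-out and -3.97 ± 0.48 in wild-type). Against 0 h, Egr1 at 24 h in wild-type did not pass (adjusted p 0.201), but did without library 3 (1.28, adjusted p 0.0409), with a model term for the library set (0.78, 0.0331) and in the first set alone (0.91, 0.00958). In the labelled knock-out, 8 h against 4 h gave 0.80 ± 0.43 (adjusted p 0.130), which passed with the set term (0.77, 0.00664) and in the first set (0.76, 0.00405).

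Egr2, an EGR factor with known roles in macrophage and lymphocyte programmes (chromosome 10, 67535475 to 67542188, plus strand), rose at 8 h, with no change that passed at 4 h (adjusted p 0.551 in the labelled knock-out and 0.696 in wild-type). Untreated cells had 2.24, 1.72 and 3.09 CPM of Egr2 in the labelled knock-out and 2.68, 2.38 and 3.60 CPM in wild-type, and at 4 h 2.25, 3.25 and 2.53 CPM in KO-labelled cells and 3.04, 2.16 and 2.73 CPM in WT cells, within the untreated range in all but 1 labelled knock-out library and 1 wild-type library. At 8 h it had 4.31, 3.47 and 5.44 CPM in the labelled knock-out, against 9.54, 9.996 and 6.32 CPM in wild-type, and the ranges did not meet. At 24 h it had 1.61 and 1.62 CPM in the labelled knock-out and 2.44, 2.37 and 1.41 CPM in wild-type, again low. In the order of means only wild-type at 8 h stood clear of its neighbour, and the other 7 groups overlapped from one to the next. The log2 fold change at 8 h against 0 h was 0.91 ± 0.26 in the labelled knock-out and 1.58 ± 0.26 in wild-type (adjusted p 0.00563 and 3.29e-05), and the labelled knock-out value did not pass against a fold of 1.5 (0.0940). Against 4 h it was 0.72 ± 0.26 in the labelled knock-out (0.0313) and 1.70 ± 0.26 in wild-type (3.81e-05). The first of these was lost without library 16 (0.112), 18 (0.0815), 19 (0.0585) or 21 (0.145), without libraries 13, 16, 19 and 22 together (0.199) and against the fold (0.345). Egr2 was lower at 24 h than at 8 h (log2 fold change -1.45 ± 0.31 in the labelled knock-out, lost without the 4 libraries at 0.0573, and -2.05 ± 0.27 in wild-type). In the first set alone it was also lower at 24 h than at 0 h in the labelled knock-out (-0.71, adjusted p 0.0314, against -0.54 ± 0.30 and 0.158 with both sets).

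Egr3, a further EGR factor (chromosome 14, 70077203 to 70082614, plus strand), was low throughout and lowest at 24 h. Untreated cells had 0.841, 1.02 and 1.32 CPM of Egr3 in the labelled knock-out and 0.786, 0.904 and 1.67 CPM in wild-type. At 4 h it had 0.895, 0.541 and 0.924 CPM in the labelled knock-out and 0.418, 0.561 and 1.03 CPM in wild-type. At 8 h it had 0.399, 0.403 and 0.467 CPM in the labelled knock-out, against 1.02, 1.25 and 0.882 CPM in wild-type, without overlap. The groups at 0, 4 and 8 h otherwise overlapped from one to the next, and those at 24 h lay below all of them. At 24 h it had 0.0440 and 0.164 CPM in the labelled knock-out and 0.0697, 0 and 0.198 CPM in wild-type, where library 11 had no read, which allows a level of up to 3 counts, 0.0670 CPM in that library (counting error only). Egr3 fell by 24 h against 0 h in both genotypes, -3.33 ± 0.67 in the labelled knock-out and -3.64 ± 0.58 in wild-type (adjusted p 5.46e-04 and 3.78e-05). With so few reads the size moved with single libraries, to -2.67 without library 22 and -4.49 without 23, and in wild-type to -3.05 without library 11 and -4.92 without 12. At 8 h it was lower than at 0 h in the labelled knock-out (-1.32 ± 0.48, adjusted p 0.0242), a call lost without library 15 (0.0790), 19 (0.0647) or 20 (0.0613), without libraries 13, 16, 19 and 22 together (-1.42, 0.0737) and against a fold of 1.5 (0.0774). In wild-type it was -0.09 at 8 h against 0 h (adjusted p 0.872). It was lower at 24 h than at 8 h, -2.01 ± 0.70 in the labelled knock-out (adjusted p 0.0330, lost without library 19 at 0.0513, 20 at 0.0570, 21 at 0.0669 or 22 at 0.279, without the 4 libraries at 0.357 and against the fold at 0.108) and -3.55 ± 0.59 in wild-type (-2.96 without library 11, -4.83 without 12). Without library 23 the labelled knock-out value was -3.18. With the library set term Egr3 at 24 h was -4.62 against 0 h and -3.54 against 8 h in the labelled knock-out, and -4.55 and -4.75 in wild-type. In the first set alone these were -4.51 and -3.23 in KO-labelled cells, and -4.48 and -4.95 in WT cells. By limma-voom the wild-type values were -4.25 and -4.23. At 8 h against 4 h Egr3 was -0.88 ± 0.50 in the labelled knock-out (adjusted p 0.155), which passed when only those groups were fitted (0.0446) and in the first set (0.0285), and 0.64 ± 0.47 in wild-type (0.283), which passed in the first set (1.22, 0.0116).

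**Figure D3:**
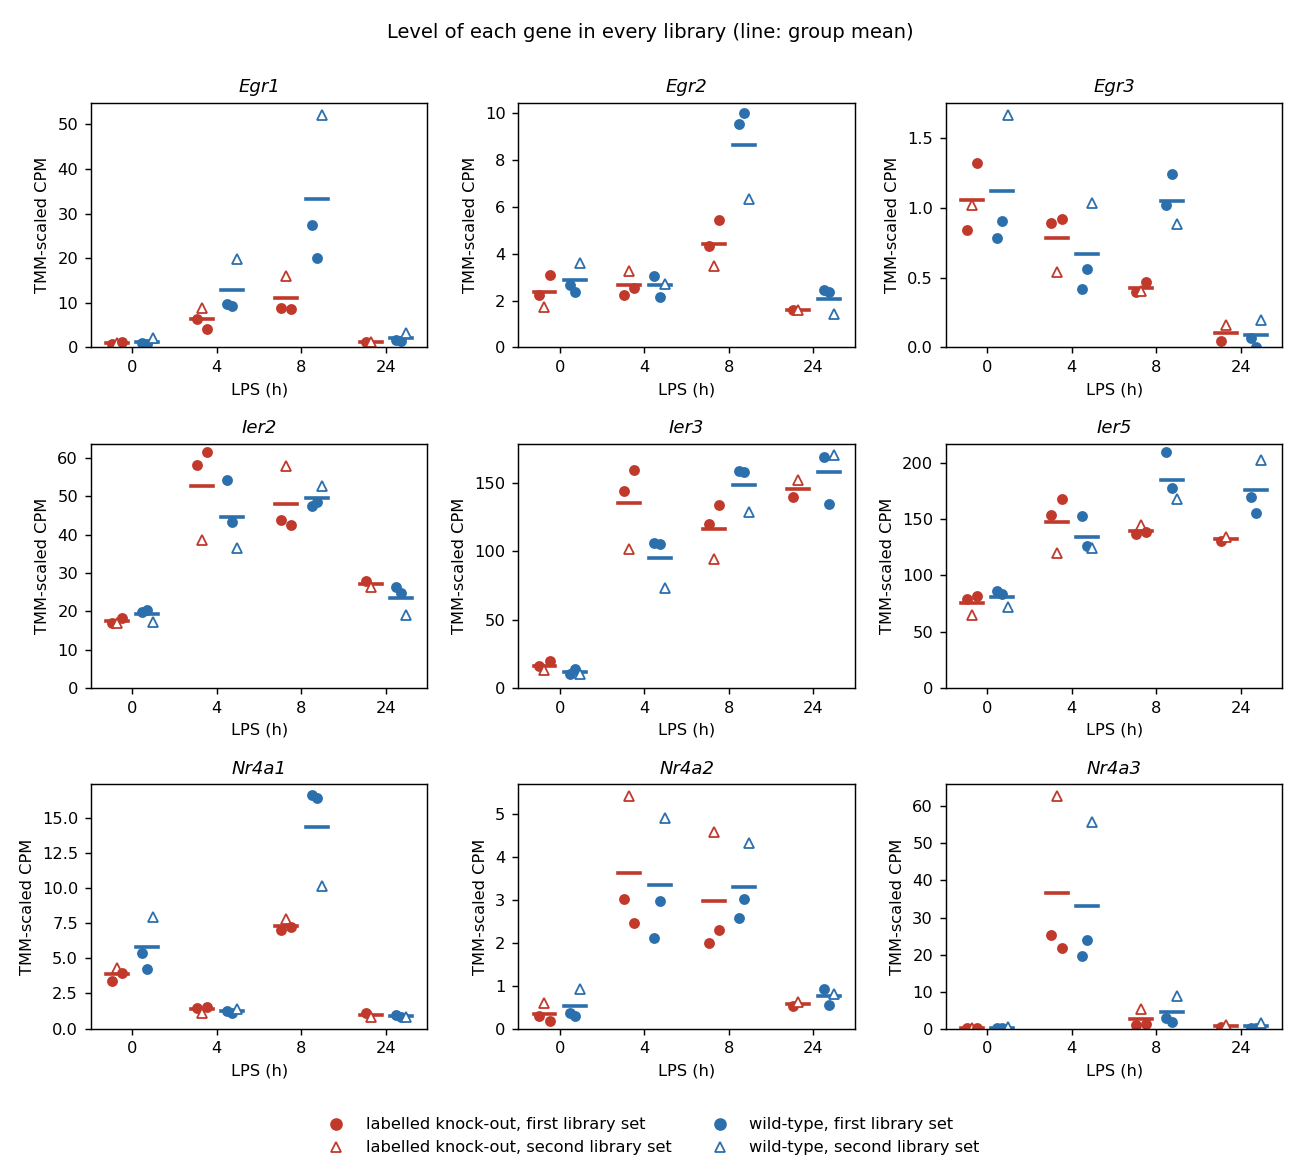
TMM-scaled CPM of each of the 9 genes in every library at 0, 4, 8 and 24 h of LPS, labelled knock-out (red) left of wild-type (blue) at each time; circles are libraries of the first library set, open triangles of the second, and lines are group means. At 8 h the labelled knock-out libraries lie below all wild-type libraries for Egr1, Egr2, Egr3, Ier5 and Nr4a1, and triangles stand on top for Nr4a3 in every group.

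Among the IER genes, Ier3, also known as IEX-1, a small protein that acts on cell survival and ERK signalling, had the largest change and was still high at 24 h (chromosome 17, 35821684 to 35822923, plus strand). Untreated cells had 15.9, 13.1 and 20.02 CPM of Ier3 in the labelled knock-out and 10.3, 13.6 and 10.3 CPM in wild-type. At 4 h it had 144, 101.4 and 159 CPM in the labelled knock-out and 106, 105 and 72.8 CPM in wild-type, and no treated library of either genotype came near the untreated ones. After 8 h it had 119.7, 94.2 and 134 CPM in KO-labelled cells and 159, 158 and 129 CPM in WT cells. At 24 h it had 139 and 152 CPM in KO-labelled cells and 169, 135 and 170.4 CPM in WT cells. The treated groups overlapped along the whole order of their means. Ier3 rose at 4 h (3.05 ± 0.21 in the labelled knock-out and 3.06 ± 0.21 in wild-type), at 8 h (2.83 ± 0.21 in KO-labelled cells and 3.70 ± 0.22 in WT cells) and at 24 h (3.16 ± 0.22 in KO-labelled cells and 3.795 ± 0.22 in WT cells), each with an adjusted p of at most 6.32e-09. In wild-type it was higher at 8 h than at 4 h (0.65 ± 0.20, adjusted p 0.0110), a call lost without library 6 (0.0676) and against a fold of 1.5 (0.425). The same comparison in the labelled knock-out gave -0.22 ± 0.19 (adjusted p 0.375), and with the library set term it passed (-0.27, 0.0486). Between 8 and 24 h in wild-type, 7 of the 9 genes fell, and the others were Ier3 (adjusted p 0.734) and Ier5 (0.690). In the first set alone Ier5 was called lower there (-0.27, 0.0321).

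Ier5, which works with heat shock factor 1 (chromosome 1, 155096361 to 155099636, minus strand), had high untreated levels and a small rise. It had 78.6, 65.1 and 82.0 CPM in untreated labelled knock-out cells and 86.4, 83.6 and 72.3 CPM in untreated wild-type cells. After 4 h it had 154, 120.1 and 168 CPM in the labelled knock-out and 153, 126 and 125 CPM in wild-type, above the untreated libraries. At 8 h it had 136, 145 and 139 CPM in the labelled knock-out, against 209.7, 177 and 168 CPM in wild-type, and at 24 h 130.4 and 134 CPM in KO-labelled cells, against 169.8, 155 and 202 CPM in WT cells, with no overlap between genotypes at either time. It rose at 4 h (0.97 ± 0.14 in the labelled knock-out and 0.74 ± 0.14 in wild-type), at 8 h (0.89 ± 0.14 in KO-labelled cells and 1.20 ± 0.14 in WT cells) and at 24 h (0.81 ± 0.15 in KO-labelled cells and 1.12 ± 0.14 in WT cells). In wild-type it was higher at 8 h than at 4 h (0.46 ± 0.14, adjusted p 0.00965), a call lost without library 7 (0.0606) and against a fold of 1.5 (0.919), and in the labelled knock-out it was -0.07 ± 0.14 (adjusted p 0.683). Against the fold the rises at 4 h in wild-type (0.106) and at 24 h in the labelled knock-out (0.0905) did not pass either.

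Ier2, a nuclear protein (chromosome 8, 84661331 to 84662854, minus strand), rose at 4 and 8 h and was lower again at 24 h. Untreated cells had 17.1, 16.9 and 18.1 CPM of Ier2 in the labelled knock-out and 19.9, 20.5 and 17.3 CPM in wild-type. The 4 h libraries had 58.2, 38.5 and 61.5 CPM in the labelled knock-out and 54.3, 43.4 and 36.5 CPM in wild-type. The 8 h libraries had 43.8, 57.8 and 42.4 CPM in the labelled knock-out and 47.5, 48.5 and 52.8 CPM in wild-type. By 24 h Ier2 was at 27.8 and 26.4 CPM in the labelled knock-out and 26.2, 24.9 and 19.1 CPM in wild-type. The 4 groups at 4 and 8 h overlapped each other and lay above all others. The log2 fold change was 1.60 ± 0.18 in the labelled knock-out and 1.22 ± 0.17 in wild-type at 4 h, and 1.47 ± 0.17 in KO-labelled cells and 1.37 ± 0.17 in WT cells at 8 h. At 24 h Ier2 was higher than at 0 h in the labelled knock-out (0.64 ± 0.19, adjusted p 0.0104, 0.0603 without library 22, 0.128 without libraries 13, 16, 19 and 22 and 0.440 against a fold of 1.5). In wild-type it was 0.28 (adjusted p 0.172), which passed with the library set term (0.32, 0.0123) and in the first set (0.37, 0.00414). The fall between 8 and 24 h passed in both (-0.82 ± 0.20 in the labelled knock-out and -1.08 ± 0.17 in wild-type), but in the labelled knock-out not without the 4 libraries (0.0565) or against the fold (0.185). At 8 h against 4 h Ier2 in the labelled knock-out was -0.14 ± 0.17 (adjusted p 0.542), and it passed with the set term (-0.39, 0.00283) and in the first set (-0.48, 4.44e-04).

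The NR4A genes each followed a course of their own. Nr4a3, encoding NOR1 (chromosome 4, 48045153 to 48086447, plus strand), rested on few reads in untreated cells, with 0.172, 0.179 and 0.118 CPM in the labelled knock-out and 0.206, 0.0553 and 0.379 CPM in wild-type. At 4 h it had 25.3, 62.8 and 21.9 CPM in the labelled knock-out and 19.7, 23.9 and 55.7 CPM in wild-type, the highest value of each genotype being in the second library set (17 and 6). At 8 h it had 0.852, 5.27 and 1.26 CPM in the labelled knock-out and 2.77, 1.87 and 8.91 CPM in wild-type, and at 24 h 0.308 and 1.01 CPM in KO-labelled cells and 0.139, 0.268 and 1.63 CPM in WT cells. The 4 h groups overlapped each other and lay above the rest, and the other 6 groups overlapped from one to the next. The rise at 4 h was the largest of the 9 genes in each genotype, 7.84 ± 1.04 in the labelled knock-out and 7.26 ± 1.005 in wild-type (adjusted p 2.62e-06 and 4.10e-06). It moved to 7.21 without library 17, and in wild-type to 7.96 without library 3 and 6.66 without 6. By 8 h Nr4a3 had fallen against 4 h (log2 fold change -3.90 ± 0.81 in the labelled knock-out and -2.87 ± 0.77 in wild-type), but was still above 0 h (3.94 ± 1.01 in KO-labelled cells and 4.39 ± 0.96 in WT cells). The rise at 8 h was 2.73 in the labelled knock-out without library 20, and in wild-type 3.43 without library 9 and 5.08 without 3. The fall against 4 h was -3.26 without library 17 and -5.11 without 20 in the labelled knock-out, and -2.27 without library 6 and -3.84 without 9 in wild-type. Between 8 and 24 h the change was -1.91 ± 0.99 in the labelled knock-out (adjusted p 0.146), which passed with the library set term (-2.45, 1.02e-04) and in the first set (-1.79, 0.00688). In wild-type it was -2.75 ± 0.85 (0.0137), a call lost when only those groups were fitted (0.0542), or without library 9 (0.119), 10 (0.0627) or 11 (0.0620). Its size was -4.45 without library 12 and -3.50 in the first set. With the set term the rise at 8 h was 3.25 in the labelled knock-out and 3.77 in wild-type. The first set gave 2.87 for that rise in the labelled knock-out, and -4.48 for the fall against 4 h. At 24 h against 0 h the labelled knock-out had 2.04 ± 1.21 (adjusted p 0.184), which passed when only those groups were fitted (0.0378).

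Nr4a1, encoding Nur77 (chromosome 15, 101254269 to 101274795, plus strand), went the opposite way at 4 h. Untreated cells had 3.38, 4.30 and 3.98 CPM of Nr4a1 in the labelled knock-out and 5.35, 4.22 and 7.90 CPM in wild-type. After 4 h it had 1.48, 1.08 and 1.54 CPM in the labelled knock-out and 1.25, 1.12 and 1.38 CPM in wild-type, all below every untreated library. After 8 h it had 6.98, 7.79 and 7.19 CPM in labelled knock-out libraries 19, 20 and 21, against 16.6, 16.4 and 10.1 CPM in wild-type libraries 7, 8 and 9, and the groups did not overlap. At 24 h it had 1.12 and 0.797 CPM in the labelled knock-out and 0.998, 0.803 and 0.817 CPM in wild-type, the lowest groups of the course. The log2 fold change against 0 h was -1.51 ± 0.24 in the labelled knock-out and -2.22 ± 0.24 in wild-type at 4 h, 0.91 ± 0.22 in KO-labelled cells and 1.30 ± 0.22 in WT cells at 8 h, and -2.01 ± 0.28 in KO-labelled cells and -2.73 ± 0.24 in WT cells at 24 h. Each passed with an adjusted p of at most 0.00144, and against a fold of 1.5 the labelled knock-out value at 8 h did not (0.0606). The rise between 4 and 8 h was 2.42 ± 0.24 in the labelled knock-out and 3.52 ± 0.25 in wild-type, and the fall by 24 h was -2.92 ± 0.29 in KO-labelled cells and -4.04 ± 0.25 in WT cells.

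Nr4a2, encoding Nurr1 (chromosome 2, 57106830 to 57124003, minus strand), was higher at 4 and 8 h than at 0 h. Untreated cells had 0.287, 0.591 and 0.177 CPM of Nr4a2 in the labelled knock-out and 0.374, 0.295 and 0.929 CPM in wild-type. At 4 h it had 3.03, 5.44 and 2.46 CPM in the labelled knock-out and 2.12, 2.98 and 4.92 CPM in wild-type, and at 8 h 1.997, 4.596 and 2.31 CPM in KO-labelled cells and 2.59, 3.03 and 4.32 CPM in WT cells. These 4 groups overlapped each other, and each lay above all the untreated libraries. The log2 fold change was 3.35 ± 0.51 in the labelled knock-out and 2.65 ± 0.48 in wild-type at 4 h, and 3.05 ± 0.50 in KO-labelled cells and 2.63 ± 0.48 in WT cells at 8 h, with adjusted p of at most 1.09e-04. Without library 14 the labelled knock-out values were 3.95 at 4 h and 3.66 at 8 h, and without library 3 the wild-type values were 3.31 at 4 h and 3.29 at 8 h. By 24 h Nr4a2 had 0.529 and 0.609 CPM in the labelled knock-out and 0.929, 0.558 and 0.817 CPM in wild-type. The log2 fold change against 8 h was -2.38 ± 0.57 in the labelled knock-out and -2.11 ± 0.48 in wild-type. Both passed, and the labelled knock-out value did not without libraries 13, 16, 19 and 22 (0.0672). Against 0 h it was 0.68 ± 0.59 in the labelled knock-out (adjusted p 0.371) and 0.53 ± 0.50 in wild-type (0.388). Both passed with the library set term (1.23, 0.00690 in KO-labelled cells and 1.11, 0.00262 in WT cells) and in the first set (0.0439 in KO-labelled cells and 0.00753 in WT cells).

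Between genotypes, Nr4a1 at 8 h was lower in the labelled knock-out (-0.97 ± 0.22, adjusted p 0.0184) and was the only one of the 9 genes to pass at that time, against 1.4% of all genes lower and 2.2% in either direction. At that time every labelled knock-out library lay below every wild-type library for 5 of the 9 genes, Egr1, Egr2, Egr3, Ier5 and Nr4a1, against 10.1% of all genes, and for none above (11.3%). The next differences were Egr1 (-1.57 ± 0.42, adjusted p 0.0645), Egr2 (-0.97 ± 0.26, 0.0567), Egr3 (-1.31 ± 0.49, 0.220) and Ier5 (-0.40 ± 0.14, 0.163), each with an unadjusted p under 0.05. Ier3 (-0.36 ± 0.20), Nr4a3 (-0.87 ± 0.76), Nr4a2 (-0.16 ± 0.44) and Ier2 (-0.05 ± 0.17) had adjusted p of 0.443, 0.684, 0.926 and 0.950. The median log2 fold change over the 9 was -0.87, beside 0.0027 over all genes. DESeq2 and limma-voom called Egr1, Egr2 and Nr4a1 (Egr1 at 0.0125 and 0.0261, Egr2 at 0.00796 and 0.0322). By edgeR, Egr1 passed when library 3, 6, 8, 12 or 20 was left out (adjusted p 0.0372, 0.0446, 0.0351, 0.0443 and 0.0422), and Egr2 when library 3, 9, 12, 14 or 15 was left out (0.0467, 0.0271, 0.0298, 0.0429 and 0.0439).

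The Nr4a1 call at 8 h was lost without libraries 13, 16, 19 and 22 (-0.94, adjusted p 0.162), when only the 8 h groups were fitted (0.0767), a fit in which Egr3 passed (-1.30, 0.0480), against a fold of 1.5 (0.638), and without library 19 (0.102), 21 (0.0853), 7 (0.126) or 8 (0.0693). Library 19, with 82.4% of the wild-type level of Selenow, had 6.98 CPM of Nr4a1 and 8.90 CPM of Egr1, close to library 21 (7.19 and 8.68 CPM), which had 39.4%. Without libraries 13, 16, 19 and 22 none of the 9 genes passed between genotypes at any time, in the average or in an interaction, and 179 genes of all were called at 8 h, against 397 with all libraries. A model term for the library set called 2931 genes of all at 8 h, and its p-values may be too small, since the sets came from these libraries. With the library set added to the model, separately for each time, 7 of the 9 genes were lower at 8 h, against 8.28% of all genes lower and 16.2% in either direction. These were Egr1 (-1.53, adjusted p 3.16e-05), Egr2 (-0.96, 0.00329), Egr3 (-1.30, 0.0270), Ier3 (-0.36, 0.0223), Ier5 (-0.40, 0.00655), Nr4a1 (-0.94, 7.88e-04) and Nr4a3 (-0.95, 0.00635). Within the first set alone, where the labelled knock-out has 1 library at 24 h, Egr1 was at -1.44 and Nr4a1 at -1.23 at 8 h. The second set has 1 library of each genotype at 8 h, library 20 and library 9, with 15.96 and 52.2 CPM of Egr1 and 7.79 and 10.1 CPM of Nr4a1.

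**Figure D4:**
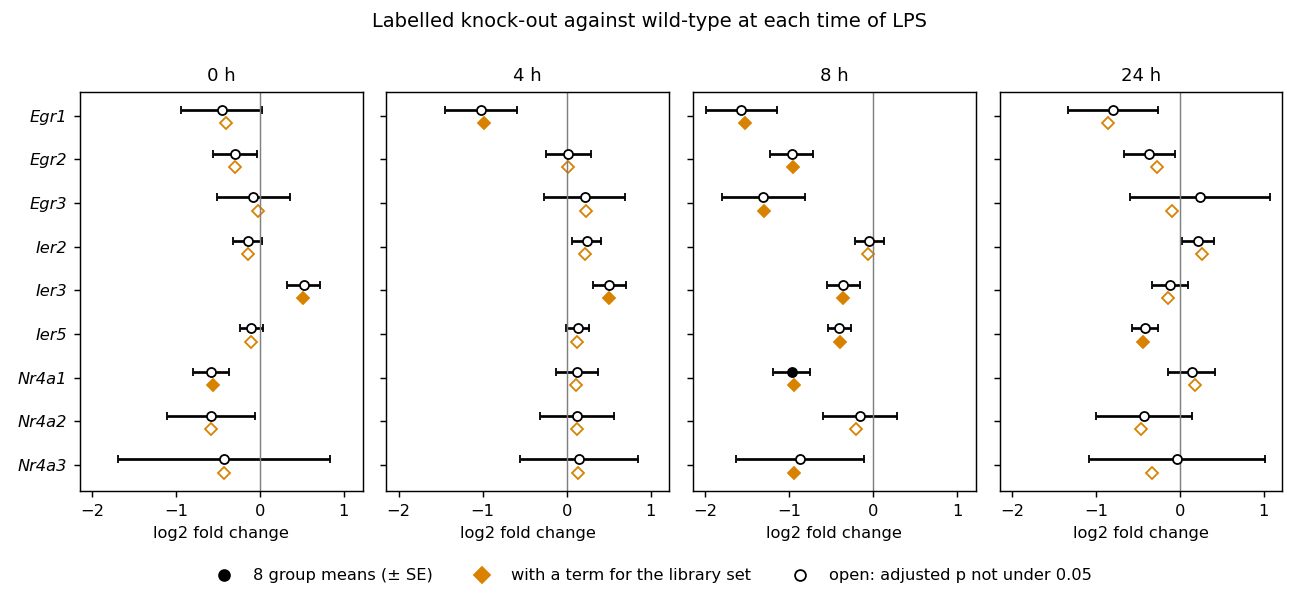
Log2 fold change of the labelled knock-out against wild-type for each gene at 0, 4, 8 and 24 h; circles with bars are from the fit of 8 group means (± SE), diamonds from the fit with a term for the library set, and filled symbols passed an adjusted p under 0.05. Nr4a1 at 8 h is the only filled circle, and 7 diamonds are filled at 8 h, all left of 0.

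None of the 9 genes passed between genotypes at 0, 4 or 24 h by edgeR, DESeq2 or limma-voom, against 1.52%, 1.24% and 1.19% of all genes by edgeR. At an unadjusted p under 0.05 by edgeR there were 2 at 0 h, Ier3 (0.52 ± 0.20) and Nr4a1 (-0.58 ± 0.22), 2 at 4 h, Egr1 (-1.02 ± 0.43) and Ier3 (0.51 ± 0.20), and 1 at 24 h, Ier5 (-0.41 ± 0.15). At 4 h the libraries of the genotypes did not overlap for Egr1 (lower, 5.34% of all genes), and at 24 h for Egr1 and Ier5 (lower, 15.5%) and Ier2 (higher, 16%), the labelled knock-out having 2 libraries there. At 0 h all 9 overlapped, against 20.8% of all genes that did not. With the library set term, Ier3 was higher (0.51) and Nr4a1 lower (-0.55) at 0 h, against 6.51% and 7.13% of all genes, Ier3 was higher (0.51) and Egr1 lower (-0.99) at 4 h, against 2.57% and 2.08%, and Ier5 was lower (-0.44) at 24 h, against 9.44%.

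Averaged over the 4 times, Egr1 was the only one of the 9 to pass, and it was lower in the labelled knock-out (-0.96 ± 0.23, adjusted p 0.0162), against 3.14% of all genes lower and 6.27% in either direction. The call held without each library in turn, and Egr2 (-0.40 ± 0.14, adjusted p 0.0949) was called as well without library 12 (0.0406) or 15 (0.0495). The Egr1 call was lost without libraries 13, 16, 19 and 22 (-0.88, 0.182), by limma-voom (-0.89, 0.0678) and against a fold of 1.5 (0.682). With the set term Egr1 (-0.94), Egr2 (-0.38) and Ier5 (-0.21) were lower, against 11% of all genes. All averages over the times take libraries of different times as independent. The labels do not tell whether such libraries share an animal or culture, so the p-values may rest on fewer independent cultures than libraries. Leaving out 1 library at a time cannot show this. In the labelled knock-out, libraries 13, 16, 19 and 22 had the highest Selenow level of their times. The interaction of genotype and LPS, which tests whether the response to LPS differed between genotypes, passed for none of the 9 at 4, 8 or 24 h by edgeR, DESeq2 or limma-voom (all genes by edgeR 0.0442%, 0.0442% and 0%). At an unadjusted p under 0.05 edgeR gave 1 gene at each time, Nr4a1 at 4 h and Ier3 at 8 and at 24 h. Ier3 at 8 h had -0.88 ± 0.28 (adjusted p 0.250), and with the set term it passed (-0.87, 0.00266) together with Egr1 (-1.13, 0.0365), as did Ier3 at 24 h (-0.65, 0.0121). Under that term the interaction called 2302 of all 18083 genes at 8 h and 2957 at 24 h.

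Markers of other cells also differed between the genotype labels. At 8 h the summed CPM of 6 stromal markers was 3.73, 67.4 and 7.08 in labelled knock-out libraries 19, 20 and 21, against 3.55, 5.49 and 4.03 in wild-type, with 0 of 6 passing and a median log2 fold change of 3.28. In the average over the 4 times 4 of the 6 were higher, with sums of 1.41 to 67.4 CPM over the 11 KO-labelled libraries and 1.14 to 8.46 CPM over the 12 WT libraries. Egr1 at 8 h was at 8.90, 15.96 and 8.68 CPM in libraries 19, 20 and 21. It was at 27.3, 19.99 and 52.2 CPM in wild-type libraries 7, 8 and 9. The summed CPM of 9 neutrophil and precursor markers at 8 h was 89.4, 63.2 and 80.9 in the labelled knock-out and 48.4, 63.0 and 47.8 in wild-type, and 3 of the 8 tested were higher. Over all times the sums were 16.3 to 183 CPM in KO-labelled libraries and 5.28 to 119.9 CPM in WT libraries. Of the 8 tested, 3 were higher at each of the 4 times and 5 in the average, with a median log2 fold change of 0.73 there. Over all libraries Ly6g was at 0 to 0.153 CPM and Elane and Mpo reached 0, while Ngp was at 0.371 to 63.8 CPM, S100a9 at 2.30 to 43.9 CPM and Ltf at 0.290 to 41.7 CPM. The part of these cells in the differences of the 9 genes between genotypes was not tested.

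Markers of macrophages and of other cells moved with time as well. Of 8 macrophage markers, 4 were higher and 0 lower at 24 h than at 0 h in each genotype. Of all genes, 22.6% were higher in the labelled knock-out and 27.8% in wild-type. At 24 h against 0 h, 8 of 8 neutrophil and precursor markers tested were lower in each genotype, with median log2 fold changes of -4.38 in the labelled knock-out and -4.94 in wild-type. Their summed CPM at 24 h was 16.3 to 19.1 in the labelled knock-out, against 178 to 183 at 0 h, and 5.28 to 7.88 in wild-type, against 102 to 119.9 at 0 h. At 4 h 3 of the 8 were lower in the labelled knock-out and 6 in wild-type, and at 8 h 6 were lower in each and 1 was higher in wild-type. Summed stromal markers had 5.37 to 33.5 CPM at 24 h in the labelled knock-out, against 1.41 to 18.01 CPM at 0 h, and 5.34 to 8.46 CPM in wild-type, against 1.14 to 1.46 CPM, with 1 of 6 higher in the labelled knock-out and 2 in wild-type. The 4 dendritic cell markers summed to 18.7 to 33.1 CPM at 4 h in KO-labelled cells, against 0.945 to 1.51 CPM at 0 h, and to 16.7 to 29.04 CPM in WT cells, against 0.786 to 1.44 CPM, with 1 of the 3 tested higher and 1 lower in each. The sums at 4 h were mostly Xcr1, which reached 32.5 CPM. Over all libraries Flt3, Zbtb46 and Cd209a reached at most 0.841, 0.588 and 0.210 CPM. Mitochondrial transcripts took 0.821% to 1.05% of fragments at 24 h in the labelled knock-out, against 1.75% to 1.87% at 0 h, and 0.934% to 0.982% in wild-type, against 1.29% to 1.63% at 0 h. The part of these in the changes of the 9 genes with time was not tested.

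Libraries of the second set were not shifted alike in all 9 genes. Within its genotype and time the second-set library was the highest for Nr4a3 in 8 of 8 groups, for Egr1 and Nr4a2 in 7 each, and the lowest for Ier2 and Ier3 in 6 each and for Ier5 in 5. As a description over 23 libraries, deviations from the group mean of log2 CPM correlated at 0.83 between Egr1 and Nr4a3, 0.72 between Egr1 and Nr4a2, 0.65 between Nr4a2 and Nr4a3 and 0.67 between Ier3 and Ier5. They correlated at -0.76 between Ier3 and Nr4a2. The libraries share their set and their scaling factor in each of these pairs. Nr4a1 and Nr4a3, of 1 family, had -0.17.

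**Figure D5:**
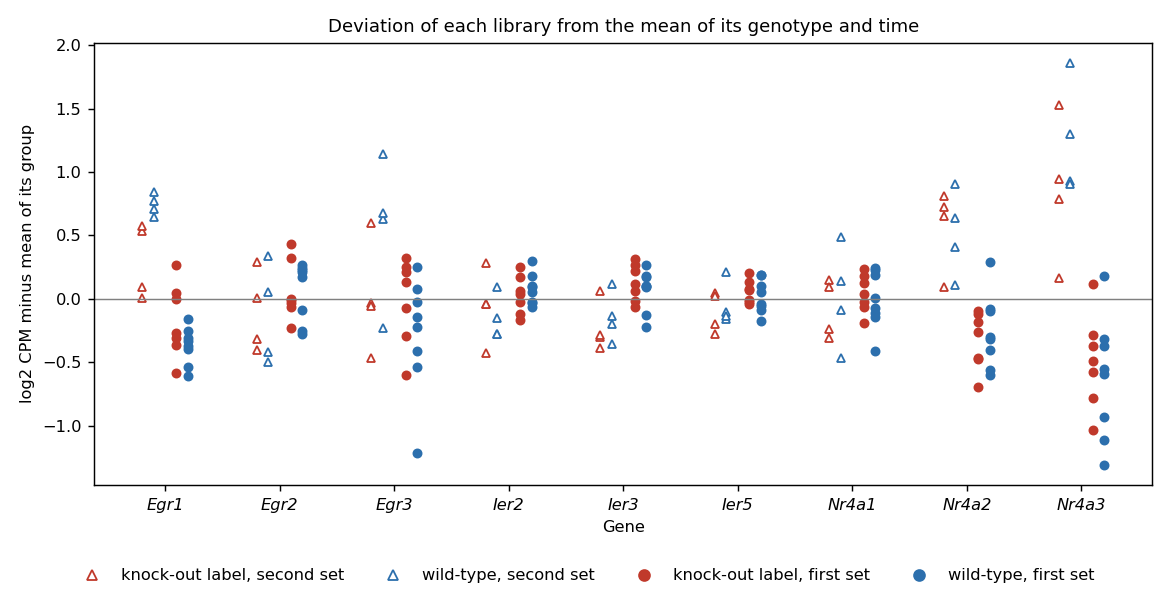
Log2 CPM of each library minus the mean of its genotype and time, for each gene; triangles are the 8 libraries of the second set and circles the 15 of the first, labelled knock-out in red left of wild-type in blue. Triangles lie mostly above 0 for Egr1, Nr4a2 and Nr4a3, and mostly below 0 for Ier2 and Ier3.

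Of 7 known partners and relatives of these proteins 5 were tested, and Egr4 and Rxrg had too few reads. At 4 h against 0 h, 1 was higher and 3 were lower in the labelled knock-out (all genes 28% and 34.1%), and 1 higher and 3 lower in wild-type (28.2% and 34.8%), with median log2 fold changes of -1.19 in KO-labelled and -1.43 in WT cells, beside -0.10 and -0.12 over all genes. Rxra, the retinoid X receptor that pairs with Nr4a1 and Nr4a2 proteins, was lower at 4 h (-3.78 ± 0.41 in the labelled knock-out and -3.67 ± 0.41 in wild-type), as was the relative Ier5l (-1.42 ± 0.45 in KO-labelled cells and -2.00 ± 0.46 in WT cells). Of the co-repressors of EGR proteins, Nab1 was higher at 4 h (1.41 ± 0.15 in KO-labelled cells and 1.51 ± 0.15 in WT cells) and Nab2 was higher at 8 h (1.46 ± 0.33 in KO-labelled cells and 1.12 ± 0.32 in WT cells). At 8 h the counts were 2 higher and 2 lower in the labelled knock-out (all genes 28.3% and 31.9%), and 2 higher and 2 lower in wild-type (30.3% and 35.1%), and at 24 h 1 higher and 2 lower in KO-labelled cells (22.6% and 20.8%) and 1 higher and 3 lower in WT cells (27.8% and 27.3%). None of the 5 passed between genotypes at any time by edgeR, DESeq2 or limma-voom, and none had an unadjusted p under 0.05 by edgeR. In edgeR with the library set term, Nab2 was higher at 4 h (0.74, adjusted p 5.45e-04), against 2.57% of all genes. Nab1 was lower at 24 h (-0.20, 0.0401), against 9.44%. In the average Nab2 (0.24) and Rxra (0.26) were higher under that term, which called 4321 of the 18083 genes in either direction.

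Of 22 upstream regulators (SRF, ELK and CREB factors, their co-activators and MAP kinases), 9 were higher and 9 lower at 4 h in the labelled knock-out (all genes 28% and 34.1%), and 7 higher and 10 lower in wild-type (28.2% and 34.8%), with median log2 fold changes of -0.02 in KO-labelled and -0.19 in WT cells, beside -0.10 and -0.12 over all genes. At 8 h the counts were 10 higher and 8 lower in KO-labelled cells (28.3% and 31.9%) and 9 higher and 8 lower in WT cells (30.3% and 35.1%), and at 24 h 6 higher and 3 lower in KO-labelled cells (22.6% and 20.8%) and 7 higher and 4 lower in WT cells (27.8% and 27.3%). Map3k8, the kinase TPL2 that carries LPS signals to ERK, rose most at 4 h (3.78 ± 0.35 in the labelled knock-out and 4.04 ± 0.36 in wild-type), while Rps6ka1, an ERK-activated kinase, fell (-2.58 ± 0.20 in KO-labelled cells and -2.70 ± 0.20 in WT cells). Between genotypes at 8 h, Crem, a CREB relative, was lower in the labelled knock-out (-0.82 ± 0.13, adjusted p 8.76e-04) and Mapk14, the kinase p38 alpha, was higher (0.66 ± 0.16, 0.0285), the 2 of 22 that passed, against 2.2% of all genes in either direction and 1.4% lower, with a median of 0.06. Without libraries 13, 16, 19 and 22 Crem passed (adjusted p 0.0397) and Mapk14 did not (0.261). At 4 h Rps6ka5, the kinase MSK1, was higher (0.78 ± 0.18, adjusted p 0.0315), the only one of the 22 that passed at that time by edgeR, against 1.24% of all genes, and it did not pass without the 4 libraries (0.201).

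Of the 35 other immediate early genes of the list, more rose than fell against 0 h in both genotypes at each time. At 4 h, 21 were higher and 7 lower in the labelled knock-out (all genes 28% and 34.1%) and 19 higher and 7 lower in wild-type (28.2% and 34.8%), with median log2 fold changes of 1.56 in KO-labelled and 1.02 in WT cells, beside -0.10 and -0.12 over all genes. At 8 h the counts were 24 higher and 4 lower in KO-labelled cells (28.3% and 31.9%) and 25 higher and 5 lower in WT cells (30.3% and 35.1%), with median log2 fold changes of 1.70 in KO-labelled and 2.60 in WT cells, beside -0.09 and -0.10 over all genes. At 24 h they were 22 higher and 3 lower in KO-labelled cells (22.6% and 20.8%) and 27 higher and 2 lower in WT cells (27.8% and 27.3%), with median log2 fold changes of 1.11 in KO-labelled and 1.53 in WT cells, beside -0.00051 and -0.0014 over all genes. The largest change at 4 h was that of Dusp2, a phosphatase of MAP kinases (6.98 ± 0.36 in the labelled knock-out and 6.91 ± 0.36 in wild-type). At 8 h in wild-type it was that of Dusp5, a phosphatase of ERK (5.07 ± 0.33 in KO-labelled cells and 5.78 ± 0.34 in WT cells).

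Between genotypes at 8 h, 1 of these 35 was higher and 6 were lower in the labelled knock-out, against 2.2% of all genes in either direction and 1.4% lower, with a median of -0.43 beside 0.0027 over all genes. Lower were Plk2 (-1.65 ± 0.28), Rgs2 (-1.43 ± 0.25), Klf4 (-1.13 ± 0.24), Dusp5 (-1.07 ± 0.27), Csrnp1 (-1.05 ± 0.20) and Dusp1 (-0.98 ± 0.24), and Sik1, a kinase that restrains CREB co-activators, was higher (1.60 ± 0.39, adjusted p 0.0348). Without libraries 13, 16, 19 and 22 Rgs2 passed (adjusted p 0.0443), and the others did not, with adjusted p of 0.0553 for Plk2, 0.0744 for Csrnp1, 0.0940 for Klf4, 0.131 for Dusp5, 0.162 for Sik1 and 0.203 for Dusp1. With the library set term 3 of the 35 were higher and 18 lower at 8 h, against 16.2% of all genes in either direction and 8.28% lower, and of the 22 upstream regulators 4 were higher and 3 lower. Under that term 1 of the 35 was higher and 6 lower at 0 h (all genes 6.51% and 7.13%). The counts were 3 higher and 2 lower at 4 h (2.57% and 2.08%), and 3 higher and 12 lower at 24 h (9.44% of all genes lower). In the average 5 were higher and 16 lower (11% of all genes lower). Dusp5, Csrnp1 and Dusp1 are named beyond the 4 with the largest change, after their values were seen. In the fit of 8 group means Sik1 was also the only one of the 35 to pass at 0 h, against 1.52% of all genes. It was higher in the labelled knock-out by 4.01 ± 0.41 (adjusted p 5.03e-06 by edgeR), and by 4.01 without the 4 libraries. At 4 h none passed by edgeR or limma-voom, with 5 at an unadjusted p under 0.05 by edgeR and 1 called by DESeq2. At 24 h 1 was higher, Sik1 (1.86 ± 0.41), and 3 were lower, Plk2 (-1.49 ± 0.32), Dusp1 (-1.42 ± 0.28) and Dusp5 (-1.40 ± 0.31), against 1.19% of all genes, and without the 4 libraries none of these passed (0.768 for Sik1, 0.449 for Plk2, 0.368 for Dusp1 and 0.659 for Dusp5). Averaged over the times 2 were higher and 7 lower, against 6.27% of all genes in either direction and 3.14% lower, and without the 4 libraries 2 were higher and 4 lower. Plk2 is a polo-like kinase, Rgs2 a regulator of G protein signalling, Klf4 a zinc-finger factor and Dusp1 a phosphatase of p38 and JNK. None of the 35 passed the interaction at 4, 8 or 24 h by edgeR, with 2, 6 and 6 at an unadjusted p under 0.05, and DESeq2 called 2, 2 and 1 and limma-voom none.

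The genes whose log2 CPM followed each member most closely over the 23 libraries were sought among 10410 other genes with a mean of at least 5 CPM. The values are Pearson correlations given as a description, since the libraries fall into clusters by time and share their scaling. For Egr1 they were Fbrsl1 (0.968), Axl (0.960) and Gnptab (0.948). For Egr2 they were Naif1 (0.881), 1700034H15Rik (0.836) and Slc30a1 (0.828). For Egr3 they were Gm20721 (0.911), Gnas (0.902) and Mki67 (0.899), and Mki67 is a marker of dividing cells. For Ier2 they were Pi4k2a (0.971), Tnfrsf1a (0.970) and Arf3 (0.965), Tnfrsf1a being the TNF receptor 1. For Ier3 they were Serpinb2 (0.976), Fbxo38 (0.976) and Tgm2 (0.976). For Ier5 they were Lilr4b (0.970), Gosr2 (0.960) and Med10 (0.959). For Nr4a1 they were Fam110a (0.966), Lima1 (0.940) and Gas2l3 (0.927). For Nr4a2 they were Pnp2 (0.963), Eif4g2 (0.962) and Eme1 (0.956). For Nr4a3 they were Cul1 (0.983), Sap30 (0.982) and Stk38l (0.976). Egr2 had the loosest of these best matches and Nr4a3 the closest.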

How the data were processed

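The authors deposited unnormalized counts of sequenced fragments for each gene of each library, beside a column of exon length that served for levels per kilobase. Per the file headers, the authors counted with featureCounts 2.0.1 over exons by gene identifier, using Ensembl release 101 gene models on GRCm38 and no strand setting, so a gene and an antisense partner cannot be told apart. No gene of the table overlaps any of the 9. The submitters' processing notes also name HISAT2 and DESeq2, without versions. Symbols came from GENCODE mouse release 21 (55141 of 55401 identifiers).

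A single fit of the 8 group means over 23 libraries was made in R 4.3.3 by edgeR 4.0.16 (TMM scaling, filterByExpr, quasi-likelihood F-test). P-values are two-sided and adjusted by Benjamini-Hochberg over the 18083 genes kept, and an adjusted p under 0.05 was called. An SE here equals the absolute log2 fold change divided by the root of F. CPM are TMM-scaled; log2 CPM used a prior count of 2. The edgeR tests of wild-type at 4 h against 0 h and of genotype at 8 h were also run on simulated counts. Those counts were independent between libraries and held no library sets, so they cannot check calls against such sets. Alternatives were limma 3.58.1 (voom), DESeq2 1.42.0, other scalings and filters, a fold of 1.5, only the groups compared, a library set term, the first set alone, without libraries 13, 16, 19 and 22, and each library left out. Library sets came from deviations of log2 CPM on odd chromosomes, without the 9 genes.

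The 9 genes, lists, sets and alternatives were chosen with earlier results of these data known. Text names all 9, the 3 genes most like each, and up to 4 called genes with the largest change per list and comparison.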

Additional observations from a re-analysis of the deposited data

How the results depend on the processing

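Over 109 fold changes of the 9 genes (80 between times, 29 between genotypes), RLE and upper-quartile scaling, no filter, a filter of 1 CPM in 3 libraries, DESeq2 and limma-voom left direction and side of the threshold of all 80 between times as they were. Between genotypes at 8 h, where 1 gene passed, 2 passed with RLE, with no filter and with the 1 CPM filter, and 3 with DESeq2 and with limma-voom. At that time 0 passed against a fold of 1.5, and 7 with the library set term. In the average (1), 2 passed with total-count scaling and with DESeq2, 0 with limma-voom, 0 against the fold and 3 with the set term. Both calls were lost without libraries 13, 16, 19 and 22, as given above. The set term gave 2, 2 and 1 at 0, 4 and 24 h (0 each). In the interaction (0 each) the set term gave 2 at 8 h and 1 at 24 h. Over all 18083 genes the set term called 2467, 842, 2931 and 3530 between genotypes at 0, 4, 8 and 24 h, and 4321 in the average. Its interaction called 2302 at 8 h and 2957 at 24 h. With only the 8 h groups fitted, 1 passed, Egr3 in place of Nr4a1. Between times, with the set term 7 in place of 4 passed in wild-type at 24 h against 0 h, beside 11242 in place of 9963 of all genes. In the labelled knock-out at 8 h against 4 h, 6 in place of 3 passed with that term, beside 10658 in place of 8537 of all genes. The genes added in this second comparison were Egr1, Ier2 and Ier3. The fold of 1.5 left 3 of 6 in wild-type at 8 h against 4 h and 3 of 5 in the labelled knock-out at 24 h against 0 h, and without the 4 libraries 2 of 6 passed in the labelled knock-out at 24 h against 8 h. Without the 4 libraries, and in the first set alone, the labelled knock-out has 1 library at 24 h, assumed to vary like the other groups. Causes were not tested. Total-count scaling was chosen after seeing the data, as were the fits without the 4 libraries and with the set term for the gene lists.

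With each library left out, the genes called numbered 0 to 3 between genotypes at 8 h and 1 to 2 in the average, in wild-type 4 to 5 (24 h against 0 h), 5 to 6 (8 h against 4 h) and 6 to 7 (24 h against 8 h), in the labelled knock-out 8 to 9 (8 h against 0 h), 4 to 5 (24 h against 0 h), 2 to 3 (8 h against 4 h) and 5 to 6 (24 h against 8 h), and were unchanged elsewhere. Leaving out 1 of the 2 labelled knock-out libraries at 24 h rests on the same assumption. Signs turned only in values that did not pass in the fit of 8 group means. Egr2 in wild-type at 4 h against 0 h was 0.076 in the first set and -0.25 to 0.062 with each library left out. Ier2 was -0.047 in wild-type at 24 h against 0 h and 0.0062 between genotypes at 8 h with total counts, and without the 4 libraries 0.0064 in the labelled knock-out at 8 h against 4 h and 0.016 between genotypes at 8 h (-0.20 to 0.035 with each library left out). Ier5 in wild-type at 24 h against 8 h was 0.19 with total counts and -0.19 to 0.026 with each library left out. Between genotypes at 8 h Nr4a2 was 0.059 without the 4 libraries and -0.62 to 0.078 with each left out, and Nr4a3 -2.09 to 0.088. In the average Egr3 was 0.046 in the first set and -0.53 to 0.083 with each left out, and Nr4a3 -0.60 to 0.13. No paired analysis was possible because the labels number the libraries 1 to 23 and no number stands in more than 1 group; the library sets came from the data. Egr3 rests on 673 reads over all libraries.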
